A study of Mus musculus with 4 samples.

Results

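Efferocytosis is the clearance of dying cells by phagocytes, and 10 genes that encode its receptors and bridging ligands were examined: *Axl*, *Mertk*, *Gas6*, *Pros1*, *Timd4*, *Stab1*, *Cd300lf*, *Mfge8*, *Itgav* and *Havcr2*. They were taken by name from the expression matrices, in which 19491 genes were listed in at least 1 of 4 libraries, and all 10 were listed in every library. The libraries held CD45+ hematopoietic cells sorted from the dura mater or the brain of adult C57BL/6J mice aged 8 weeks, either from control mice (CT, read here as the sham-operated mice of the study and written S3, which the labels do not state) or at day 3 after photothrombotic injury (INJ, D3). Photothrombotic injury (PTI) occludes vessels under the light by activation of an injected dye, and the study used it to injure the dura mater, the pia mater and the brain together. The labels of the brain libraries write the sort as CD45-+, and *Ptprc*, which encodes CD45, had a unique molecular identifier (UMI) in 91.7% to 95.5% of the cells kept in each library. Each condition was a single library with no label for the number of mice, so no difference below has a replicate check or a test, and the 95% intervals in parentheses cover counting error only.

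A phagocyte recognizes a dying cell mainly by phosphatidylserine, a lipid that moves to the outer face of the membrane. *Axl* and *Mertk* encode receptor tyrosine kinases that reach it through soluble bridging proteins, GAS6 (*Gas6*) and protein S (*Pros1*), of which AXL uses GAS6 and MERTK uses both. *Mfge8* encodes another bridging protein, read by αv integrins (*Itgav* encodes the αv chain). *Timd4*, *Stab1*, *Cd300lf* and *Havcr2* encode receptors that bind phosphatidylserine directly. In the brain, microglia and recruited macrophages clear dying cells after ischaemia, and macrophages of the borders clear debris in the meninges.

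The 10 genes lie at separate loci. In GRCm38 (GENCODE vM21), *Axl* (ENSMUSG00000002602, chr7:25757273-25788705, minus strand), *Mfge8* (ENSMUSG00000030605, chr7:79133768-79149060, minus strand), *Gas6* (ENSMUSG00000031451, chr8:13465374-13494490, minus strand), *Stab1* (ENSMUSG00000042286, chr14:31139013-31168641, minus strand) and *Cd300lf* (ENSMUSG00000047798, chr11:115116214-115133992, minus strand) lie on 4 chromosomes. *Mertk* (ENSMUSG00000014361, chr2:128698956-128802894, plus strand), *Itgav* (ENSMUSG00000027087, chr2:83724397-83806916, plus strand), *Pros1* (ENSMUSG00000022912, chr16:62854307-62929346, plus strand), *Timd4* (ENSMUSG00000055546, chr11:46810800-46844332, plus strand) and *Havcr2* (ENSMUSG00000020399, chr11:46454935-46481255, plus strand) are the members on the plus strand. *Timd4* and *Havcr2*, both of the TIM family, lie near each other on chromosome 11.

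The 250 bases before the RefSeq start (GRCm38.p6) are shown for the 3 members that were highest in *Lyve1*+ macrophages in every library among named classes of at least 20 cells, *Stab1*, *Gas6* and *Timd4*, and for *Axl*, which was highest in *Lyve1*- macrophages. All 10 members matched the promoter table. Sequences read 5′ to 3′ on the strand of the gene, and capitals mark GAGGAA, the core letters read by PU.1, or TGCTGA, a Maf half-site, on either strand (TTCCTC and TCAGCA on the opposite one). The windows are chr14:31168642-31168891, minus strand for *Stab1*, chr11:46810549-46810798, plus strand for *Timd4*, chr8:13494536-13494785, minus strand for *Gas6* and chr7:25788734-25788983, minus strand for *Axl*.
Stab1: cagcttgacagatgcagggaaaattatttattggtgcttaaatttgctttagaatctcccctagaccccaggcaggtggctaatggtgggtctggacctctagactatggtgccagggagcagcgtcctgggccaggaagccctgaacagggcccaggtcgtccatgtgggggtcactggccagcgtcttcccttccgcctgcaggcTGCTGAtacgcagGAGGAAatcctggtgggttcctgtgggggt
Timd4: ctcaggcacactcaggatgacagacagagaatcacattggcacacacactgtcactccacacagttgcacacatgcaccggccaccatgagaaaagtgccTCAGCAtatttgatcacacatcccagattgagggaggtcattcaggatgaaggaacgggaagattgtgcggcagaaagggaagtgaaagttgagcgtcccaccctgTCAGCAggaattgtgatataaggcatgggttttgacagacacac
Gas6: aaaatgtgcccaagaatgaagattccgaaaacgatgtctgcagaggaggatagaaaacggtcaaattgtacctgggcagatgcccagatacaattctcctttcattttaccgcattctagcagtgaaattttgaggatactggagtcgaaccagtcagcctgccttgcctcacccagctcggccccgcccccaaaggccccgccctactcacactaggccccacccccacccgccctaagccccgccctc
Axl: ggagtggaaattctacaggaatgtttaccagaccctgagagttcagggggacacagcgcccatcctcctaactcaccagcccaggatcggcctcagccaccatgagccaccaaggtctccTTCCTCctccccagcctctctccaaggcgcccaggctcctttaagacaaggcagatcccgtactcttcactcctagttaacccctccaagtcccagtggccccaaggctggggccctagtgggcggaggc
The *Stab1* window held a Maf half-site 43 bases and a PU.1 core 30 bases before the start. The *Timd4* window held 2 Maf half-sites, the *Axl* window 1 PU.1 core, and the *Gas6* window neither set of letters. GAGGAA was found in the windows of 6 of 10 members, against 23.3% of 32851 RefSeq windows of the same length. TGCTGA was found in 2 of 10, against 16.1%. These matches describe letters and not bound sites.

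After filtering, 3603 cells of S3 brain, 4442 of D3 brain, 3416 of S3 dura mater and 2606 of D3 dura mater were kept, with a median of 8228, 14244.5, 9180 and 14118 UMIs per cell. Pairs of libraries shared 3 to 11 cell barcodes. Cells were clustered without the 10 genes and the rest of the engulfment pathway, and clusters are called "like" a cell type from marker lists. Levels are given as CPM, the summed UMIs of a gene per 1000000 UMIs of a class in a library, and they are compared between classes and not between genes, since capture at the 3′ end can differ from gene to gene. Shares of cells were taken after each cell was thinned to 2000 UMIs, and a difference was counted when a gene had at least 50 UMIs over both groups and differed at least 2-fold. T-like and B-like cells together served as cells that should lack the myeloid members. They had medians of 5170 to 5867.5 UMIs, and their *Mertk* level was 0.553, 17.4, 0.3198 and 0 CPM in S3 brain, D3 brain, S3 dura mater and D3 dura mater. Their *Gas6* level was 3.59, 11.1, 13.1 and 25.1 CPM, and their *Stab1* level 9.95, 12.6, 10.2 and 30.01 CPM, in the same order. This order of libraries is kept wherever 4 values follow each other.

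**Figure D1:**
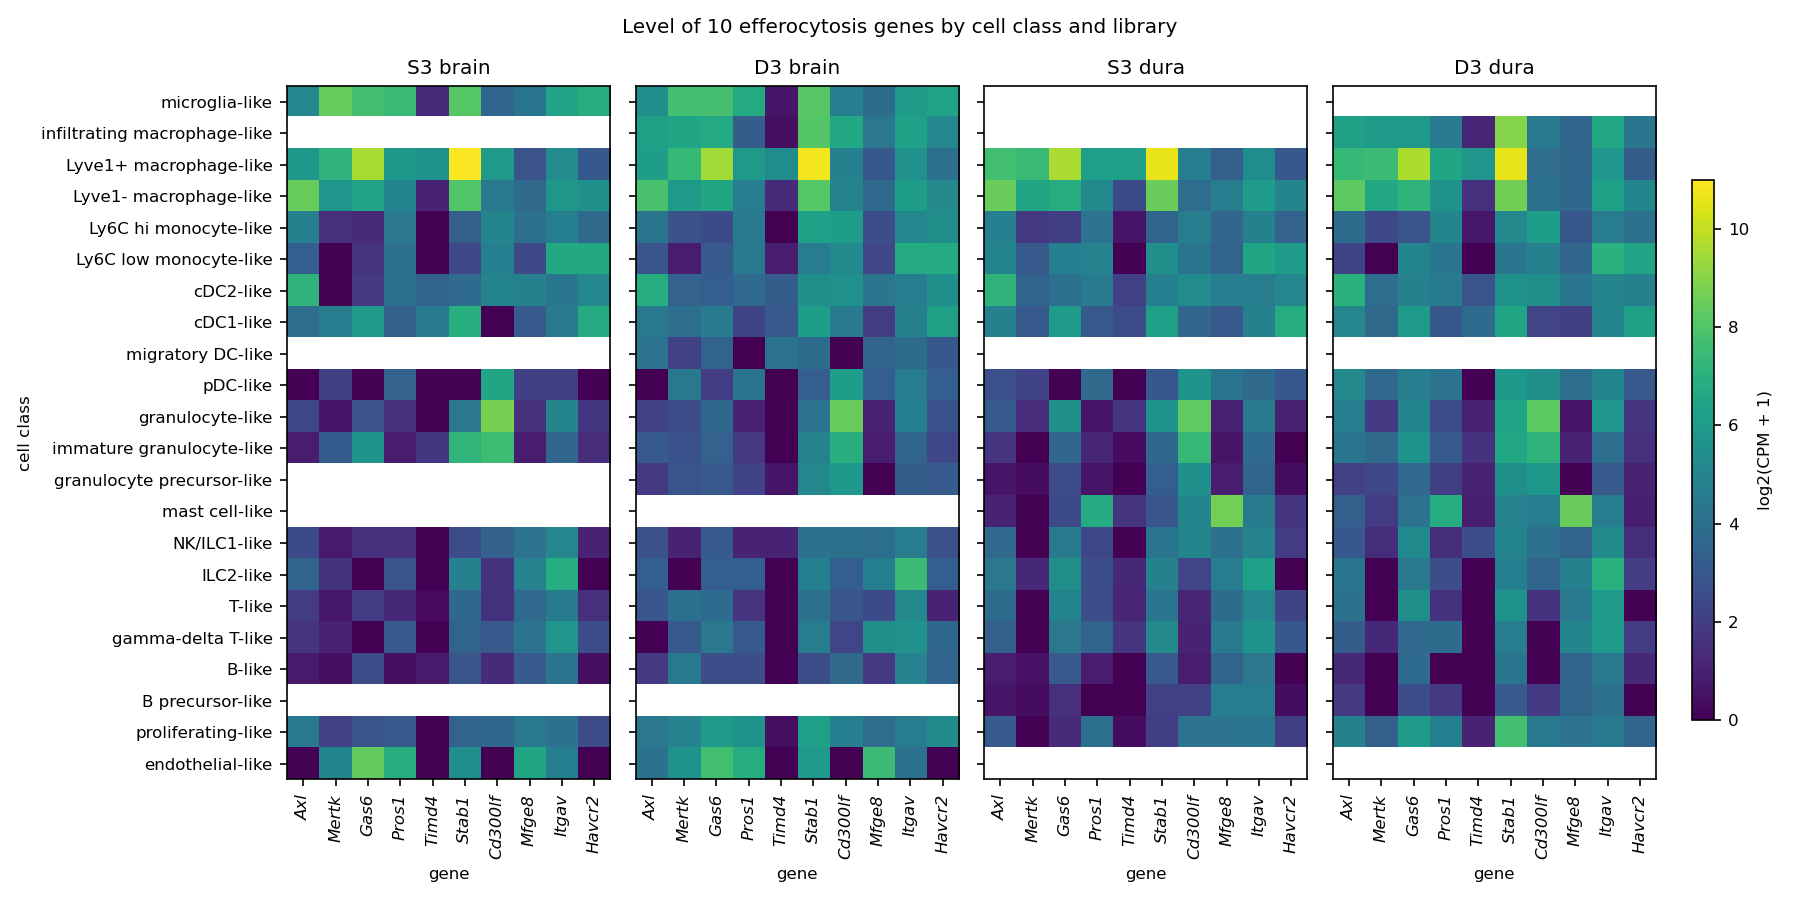
Level of each gene, as log2(CPM + 1), in every class with at least 20 cells (rows) and each library (panels), with classes under 20 cells left white. *Stab1* and *Gas6* are brightest in *Lyve1*+ macrophage-like cells, *Axl* in *Lyve1*- macrophage-like cells, *Cd300lf* in granulocyte-like cells and *Mfge8* in the mast cell-like cells of the dura mater.

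*Mertk*, the receptor for both GAS6 and protein S, was highest in microglia-like cells, at 348 CPM (331 to 365) in S3 brain and 212 CPM (203 to 221) in D3 brain. *Lyve1*+ macrophage-like cells followed, at 142, 164, 168 and 187 CPM. *Lyve1*- macrophage-like cells held 53.7, 62.1, 90.1 and 95.2 CPM. The order microglia, *Lyve1*+ and *Lyve1*- held in both brain libraries without overlap of the intervals, and infiltrating macrophage-like cells of D3 brain lay between the *Lyve1*+ and *Lyve1*- classes at 86.9 (83.8 to 90.1) CPM. Ly6C hi monocyte-like cells, the blood-derived precursors of macrophages, held only 1.901, 5.704, 2.604 and 4.16 CPM, and granulocyte-like cells at most 4.65 CPM. After thinning, 52.4% (47.5 to 57.3) of S3 and 41.3% (37.5 to 45.3) of D3 microglia-like cells had a *Mertk* UMI, against 0% and 0.483% of T-like and B-like cells.

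*Axl* followed another order. *Lyve1*- macrophage-like cells, marked by MHC class II genes, were highest in every library at 351 (329 to 373), 228 (210.1 to 246), 361 (335 to 388) and 306 (287 to 326) CPM. The second place differed between the tissues. In the dura mater it was held by *Lyve1*+ macrophage-like cells, at 202 (189 to 216) CPM in S3 and 164 (155 to 173) CPM in D3. In the brain the same class held 57.96 (46.9 to 70.8) and 68.6 (56.6 to 82.4) CPM, below the cDC2-like cells at 142 (128 to 157) and 110.1 (100.3 to 121) CPM. Type 2 conventional dendritic cells (cDC2-like) of the dura mater held a similar 142 and 131 CPM. Microglia-like cells, which led for *Mertk*, held 33.4 and 40.4 CPM of *Axl*. *Axl* was also 1 of the 10 leading genes of the *Lyve1*- cluster, although it took no part in the clustering.

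Both receptors were seldom found in the same cell at this depth. Of the 339 thinned *Lyve1*+ macrophage-like cells of S3 dura mater, 27 had a UMI of both, 61 of *Axl* only and 53 of *Mertk* only. Of the 416 S3 microglia-like cells, 9 had both, 6 *Axl* only and 209 *Mertk* only. Of the 1497 infiltrating macrophage-like cells of D3 brain that could be thinned, 24 had both, 185 *Axl* only and 204 *Mertk* only. These counts were not set against those expected from the single shares, so they do not show that the receptors mark separate cells.

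*Gas6*, the shared ligand, was highest in *Lyve1*+ macrophage-like cells at 760.1 (719 to 803), 713 (673 to 755), 772 (745 to 799) and 811 (791 to 831) CPM. Of the thinned cells, 80.3%, 77.6%, 75.8% and 77.3% had a UMI. Microglia-like cells held 214 CPM in S3 and 218 CPM in D3 brain. *Lyve1*- macrophage-like cells held 85.3, 88.1, 112 and 141 CPM. In the dura mater, where T-like and B-like cells held up to 25.1 CPM, granulocyte-like cells at 44.3 and 31.3 CPM were above the S3 but not clearly above the D3 background of 25.1 (17.1 to 35.7) CPM. *Gas6* and its receptor *Axl* were found together in 60 of the 339 thinned S3 dura *Lyve1*+ cells and in 100 of the 516 of D3.

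*Pros1*, the other ligand of MERTK, stood at 173 (161 to 185) CPM in microglia-like cells of S3 brain, the highest class, and at 104 (97.6 to 109.9) CPM in those of D3 brain, where the 25 endothelial-like cells held 112 (69.3 to 171) CPM and the intervals overlapped. In the dura mater the highest class was mast cell-like, at 109 (88.7 to 133) and 112 (92.8 to 133) CPM, with 27.03% and 24.7% of thinned cells positive. *Lyve1*+ macrophage-like cells held 57.4, 60.2, 72.2 and 86.5 CPM. Microglia of S3 brain were thus the highest class for both *Mertk* and *Pros1*, whereas the infiltrating macrophage-like cells of D3 brain held only 8.48 (7.53 to 9.51) CPM of *Pros1*, below the other macrophage classes of that library.

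*Mfge8*, the bridge to αv integrins, was near background in *Lyve1*+ macrophages. *Lyve1*+ macrophage-like cells held 6.04, 7.22, 9.41 and 11.9 CPM, near the 10.8, 3.95, 11.5 and 14.6 CPM of T-like and B-like cells. In D3 brain, infiltrating macrophage-like cells at 19.7 (18.2 to 21.2) CPM and microglia-like cells at 13.7 (11.6 to 16.2) CPM were above the background of 3.95 (1.28 to 9.21) CPM. *Lyve1*- macrophage-like cells of S3 dura mater, at 24.7 (18.2 to 32.6) CPM, were above 11.5 (8.06 to 15.9) CPM. Mast cell-like cells of the dura mater stood apart at 403 (362 to 447) CPM in S3 and 352 (318 to 389) CPM in D3, and 63.1% and 46.4% of them were positive after thinning. The next highest class of at least 20 cells held 25.4 CPM in S3 (cDC2-like) and 32.2 CPM in D3 (gamma-delta T-like). In the brain the 20 and 25 endothelial-like cells were highest, at 87.9 and 187 CPM. *Mfge8* and *Pros1* were both highest in mast cells among the classes of the dura mater, while *Mertk* held 0 UMIs in 111 S3 mast cell-like cells, which, at the limit of 3 counts set for a count of 0, allows a share of cells with a UMI of up to 2.70%.

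*Itgav* was spread widely. T-like and B-like cells themselves held 20.05, 33.2, 23.03 and 38.1 CPM. The highest classes were ILC2-like cells, at 111, 181, 72.1 and 126 CPM, and Ly6C low monocyte-like cells, at 100.3, 106, 89.4 and 129 CPM. These classes held 20 to 177 cells a library and their intervals overlapped in each of the 4 libraries. Microglia-like cells held 85.2 and 65.3 CPM, and infiltrating macrophage-like cells of D3 brain 77.6 CPM.

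*Stab1*, a scavenger receptor, marked *Lyve1*+ macrophage-like cells at 1961 (1895 to 2030.1), 1767 (1703 to 1832), 1571 (1534 to 1609) and 1578 (1551 to 1606) CPM, and 86.4% to 95.5% of these cells were positive after thinning. Microglia-like cells held 274 and 282 CPM, *Lyve1*- macrophage-like cells 261, 277, 361 and 387 CPM, and infiltrating macrophage-like cells of D3 brain 264 CPM. *Timd4*, a receptor of resident macrophages, was also highest in the *Lyve1*+ class at 47.7 (37.8 to 59.4), 40.3 (31.3 to 51.2), 72.7 (64.8 to 81.3) and 52.6 (47.7 to 57.8) CPM. In the 2 libraries of the dura mater this class held 84.0% and 83.5% of all *Timd4* UMIs, and in the brain 49.7% and 45.3%. The cDC2-like cells of the brain held the next most, with 28 and 36 UMIs. Of the thinned *Lyve1*+ cells of S3 dura mater, 37 had both *Timd4* and *Stab1*, 4 *Timd4* only and 256 *Stab1* only.

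**Figure D2:**
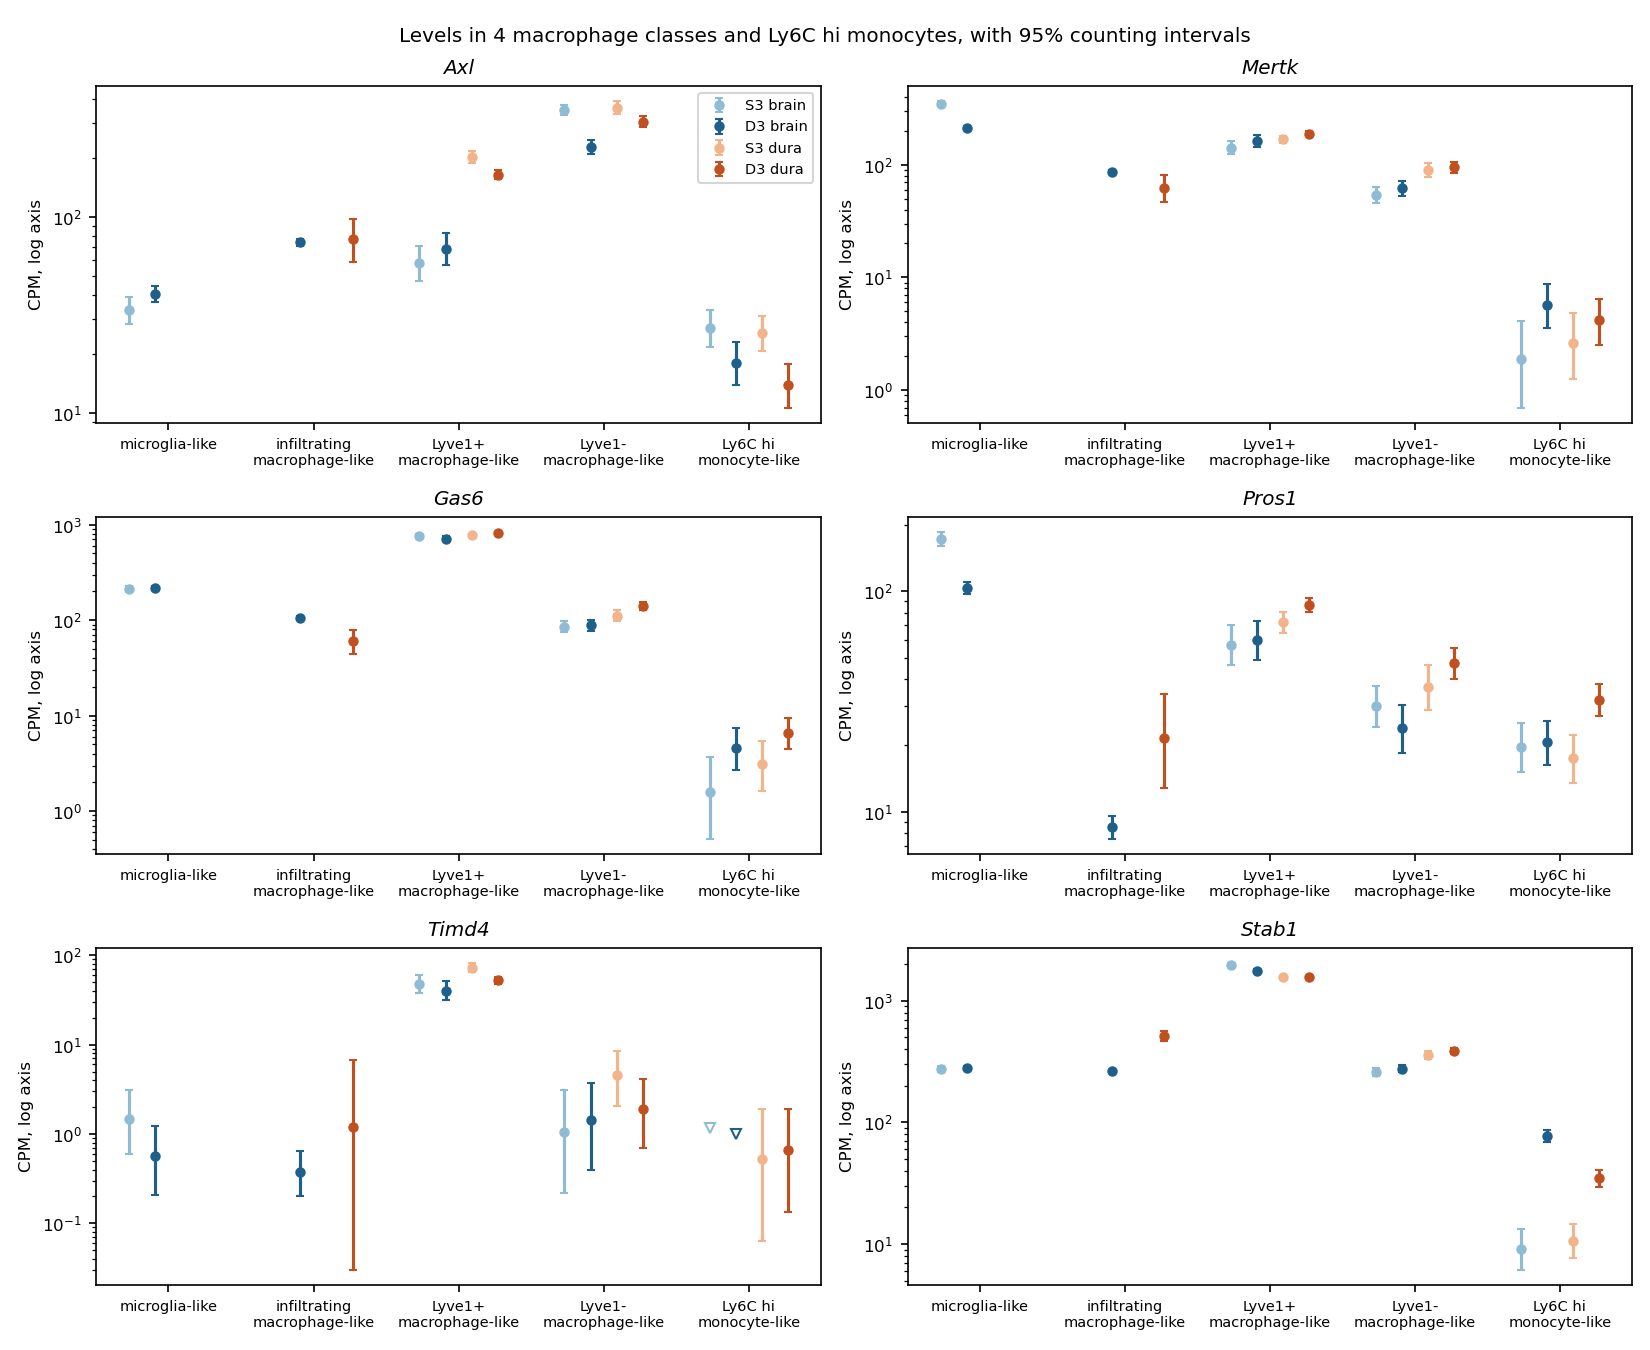
CPM on a log axis of 6 members in 4 macrophage-like classes and Ly6C hi monocyte-like cells, 1 point per library, bars 95% counting intervals, and open triangles the upper limit where no UMI was found. *Mertk* and *Pros1* are highest in microglia-like cells, *Gas6*, *Timd4* and *Stab1* in *Lyve1*+ cells, and *Axl* in *Lyve1*- cells.

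*Cd300lf* was highest in granulocyte-like cells among named classes. These cells held 423 (392 to 456), 351 (312 to 393), 315 (290.4 to 342) and 298 (273 to 324) CPM, and 49.6% to 58.1% of them were positive after thinning. Immature granulocyte-like cells held 192, 117, 158 and 142 CPM, and granulocyte precursor-like cells 45.4 CPM in S3 and 56.7 CPM in D3 dura mater. Per UMI of the class, the level was thus highest in the mature class, lower in the immature and lowest in the precursor class in both dura libraries. These classes differed in depth, with medians of 4962, 10307.5 and 31711 UMIs per cell in S3 dura mater. There *Cd300lf* had 584 UMIs in 351 mature, 624 in 332 immature and 168 in 121 precursor cells, so per cell the mature class was not the highest. Infiltrating macrophage-like cells of D3 brain held 95.8 (92.5 to 99.1) CPM, and plasmacytoid dendritic (pDC-like) cells 88.6, 67.9999, 51.01 and 42.1 CPM over 23 to 42 cells.

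*Havcr2* was highest in microglia-like cells of S3 brain at 115 (105 to 125) CPM, with cDC1-like cells at 108 (84.2 to 137) CPM and Ly6C low monocyte-like cells at 100.3 (73.4 to 134) CPM, and these 3 did not differ beyond their intervals. In D3 brain the same classes held 81.9, 76.2 and 107 CPM. In the dura mater cDC1-like cells held 110.1 and 75.8 CPM, and *Lyve1*- macrophage-like cells 30.7 and 32.03 CPM. *Lyve1*+ macrophage-like cells held 7.24, 15.05, 7.06 and 8.41 CPM, so *Havcr2* and *Timd4*, of the same family, were high in different macrophage classes.

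The classes that held the UMIs of a gene differed between S3 and D3 brain. Microglia-like cells held 73.99% of the *Mertk* UMIs of S3 brain and 37.6% of those of D3 brain, where infiltrating macrophage-like cells held 50.02%. Over all cells, *Mertk* stood at 59.5 CPM in S3 and 82.1 CPM in D3 brain. For *Axl*, *Lyve1*- macrophage-like cells held 47.5% of the UMIs in S3 brain and 14.2% in D3 brain, with 57.1% in infiltrating macrophage-like cells. The infiltrating class also held most UMIs of *Cd300lf* (62.4%), *Mfge8* (57.6%), *Itgav* (60.4%) and *Stab1* (52.96%) in D3 brain, but only 15.003% of those of *Pros1*. This class was 1498 of 4442 cells of D3 brain and 8 of 3603 of S3 brain. Over all genes it held 34208174 of the 72369927 UMIs of D3 brain. The shares of *Mertk* and *Stab1* lay near that share of all UMIs, so they do not set these genes apart. In the dura mater *Lyve1*+ macrophage-like cells held 75.02% of the *Gas6* UMIs in S3 and 76.3% in D3, and they were 341 of 3416 and 516 of 2606 cells. *Gas6* over all dura cells stood at 107 CPM in S3 and 212 CPM in D3, although its level within the class was 772 and 811 CPM.

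**Figure D3:**
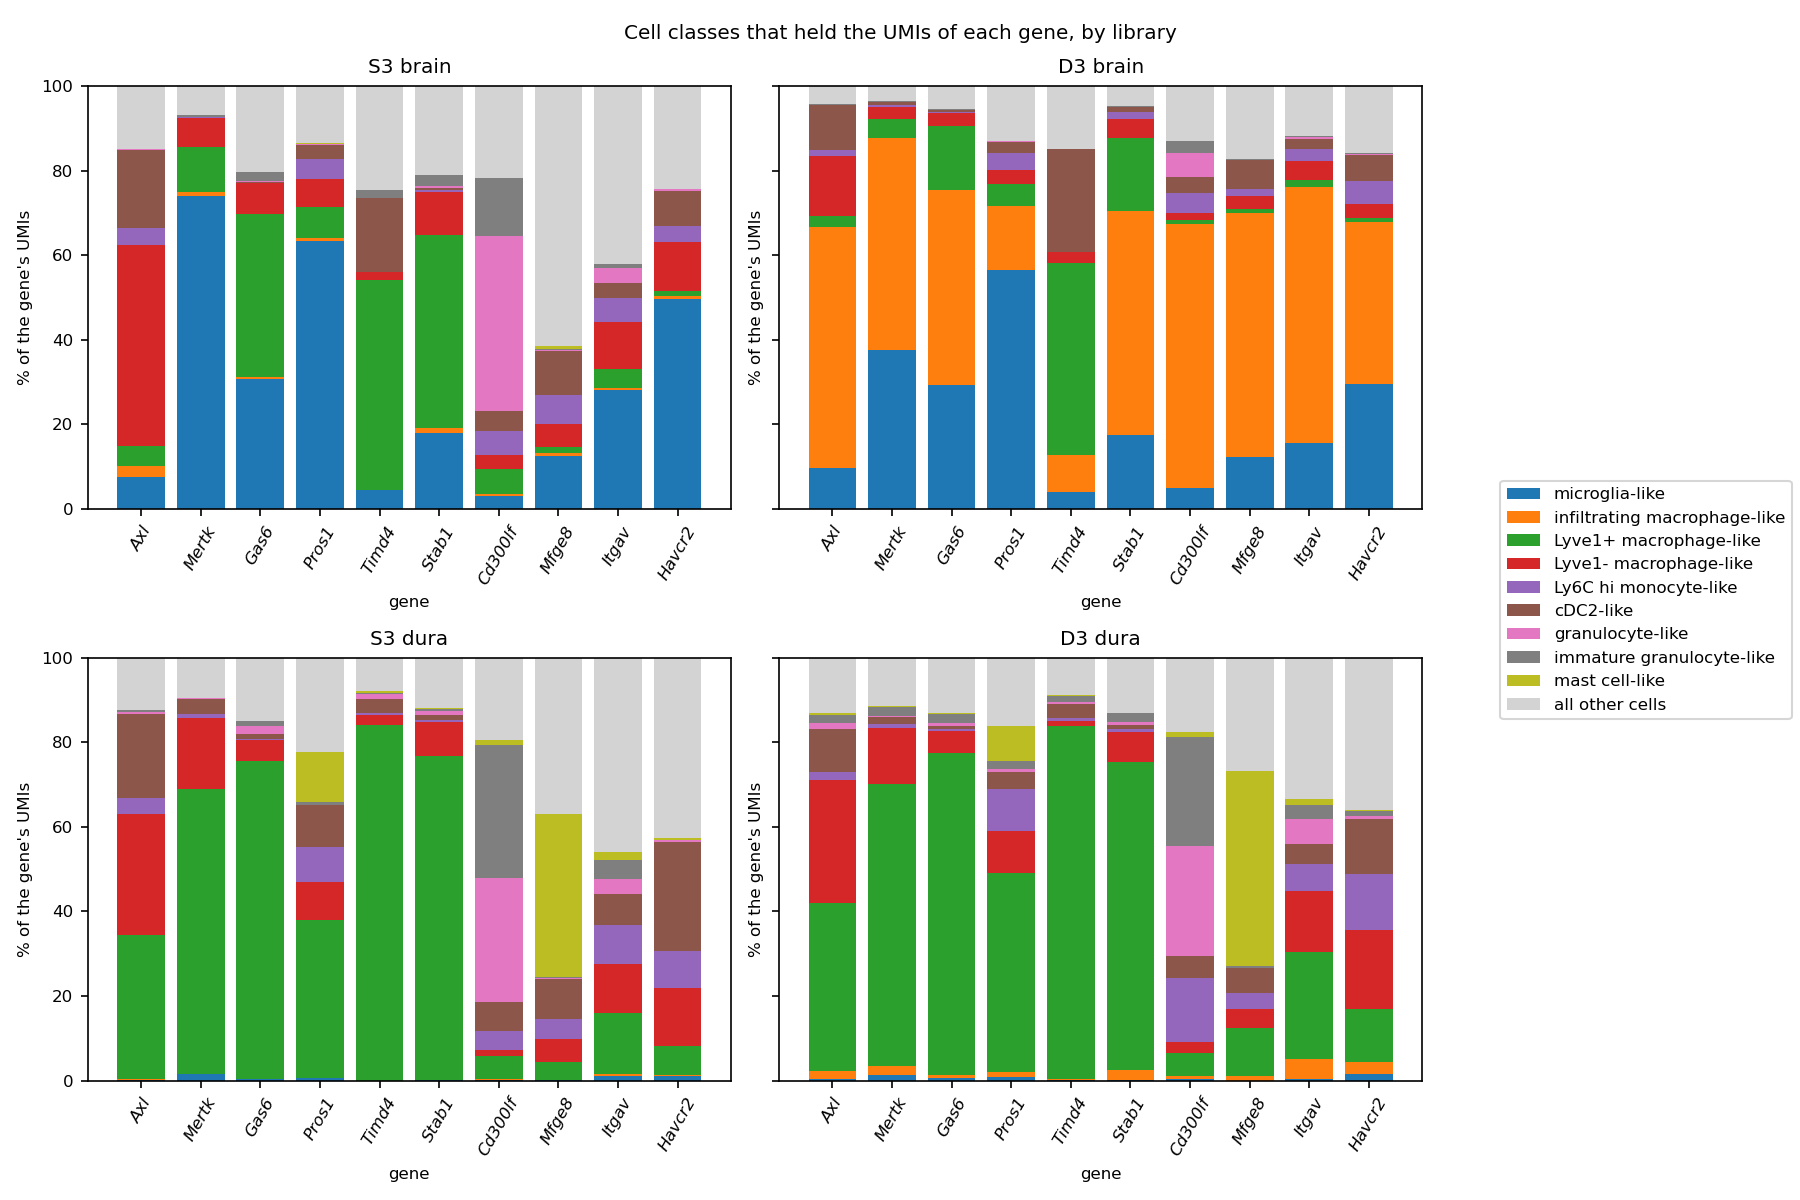
Share of the UMIs of each gene (percent, vertical axis) that lay in each class, by library, with all classes not named in grey. In D3 brain the infiltrating macrophage-like class holds more than any other for 8 of the 10 genes, *Pros1* and *Timd4* being the exceptions. Over all genes this class holds 34208174 of the 72369927 UMIs of that library. In the dura mater *Lyve1*+ cells hold most of *Gas6*, *Stab1*, *Timd4* and *Mertk* in both libraries.

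The first comparison asked how microglia-like cells of D3 brain differed from those of S3 brain. *Mertk* stood at 348 CPM in S3 and 212 CPM in D3, a log2 ratio of -0.71 (-0.81 to -0.62). *Pros1* stood at a ratio of -0.74 (-0.87 to -0.61), *Havcr2* at -0.49 (-0.65 to -0.33) and *Itgav* at -0.38 (-0.56 to -0.201). *Gas6* and *Stab1* were nearly level, at 0.02 (-0.08 to 0.13) and 0.04 (-0.05 to 0.14). *Cd300lf* went from 11.1 to 25.3 CPM, a ratio of 1.19 (0.76 to 1.65), and was the only 1 of 9 members tested past 2-fold, against 9.98% of 9967 genes tested. The median over the members tested was -0.38, beside -0.18 over all genes. Beside these, the 12 genes of the infiltrating macrophage list summed to 2059 CPM in S3 and 7007 CPM in D3 microglia-like cells, with *Arg1* at 1.28 and 71.4 CPM, the microglia list to 24820 and 15890 CPM, and the granulocyte list, the class in which *Cd300lf* is highest, to 1235 and 2802 CPM. T-like and B-like cells held 1.797 (0.957 to 3.07) and 8.69 (4.34 to 15.5) CPM of *Cd300lf*. The part of these in the ratios was not tested.

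The macrophages of the dura mater differed little between S3 and D3. In *Lyve1*+ cells 0 of 10 members passed 2-fold, against 1.63% of 9736 genes, and no test was run, so no unadjusted p exists. The intervals lay off 0 for *Cd300lf* at -0.81 (-1.203 to -0.42), *Timd4* at -0.47 (-0.68 to -0.25), *Itgav* at 0.46 (0.203 to 0.73), *Axl* at -0.299 (-0.42 to -0.17), *Pros1* at 0.26 (0.06 to 0.46), *Mertk* at 0.15 (0.02 to 0.28) and *Gas6* at 0.07 (0.01 to 0.13). *Stab1*, with the most UMIs, stood at 0.01 (-0.04 to 0.05). In *Lyve1*- cells of the dura mater 1 of 9 members passed 2-fold, against 1.06% of 7543 genes. This was *Mfge8*, from 24.7 to 11.6 CPM on 49 and 37 UMIs, and T-like and B-like cells held 14.6 CPM in D3. It was no longer past 2-fold (-0.92) without the cell with the most UMIs. *Gas6* stood at 0.34 (0.104 to 0.58) and *Axl* at -0.24 (-0.38 to -0.097).

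In the brain the same classes gave a like picture. In *Lyve1*+ cells 1 of 8 members passed 2-fold, against 3.63% of 6828 genes. This was *Cd300lf*, from 60.97 to 27.7 CPM, a ratio of -1.14 (-1.67 to -0.62). The 10 genes of the granulocyte list, the class in which *Cd300lf* is highest, summed to 26620 CPM in the S3 and 5215 CPM in the D3 cells, against 5711 and 6324 CPM in the dura mater, and its part in the ratio was not tested. With doublets kept the ratio was -0.26. *Gas6* stood at -0.09 (-0.21 to 0.02), *Mertk* at 0.21 (-0.05 to 0.46) and *Stab1* at -0.15 (-0.22 to -0.08). In *Lyve1*- cells 0 of 9 members passed 2-fold, against 2.2% of 7356 genes. *Axl* had the largest difference, from 351 to 228 CPM, a ratio of -0.62 (-0.77 to -0.48). *Axl* was thus lower at D3 in the *Lyve1*- cells of both tissues, with intervals below 0 in each, by less than 2-fold.

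**Figure D4:**
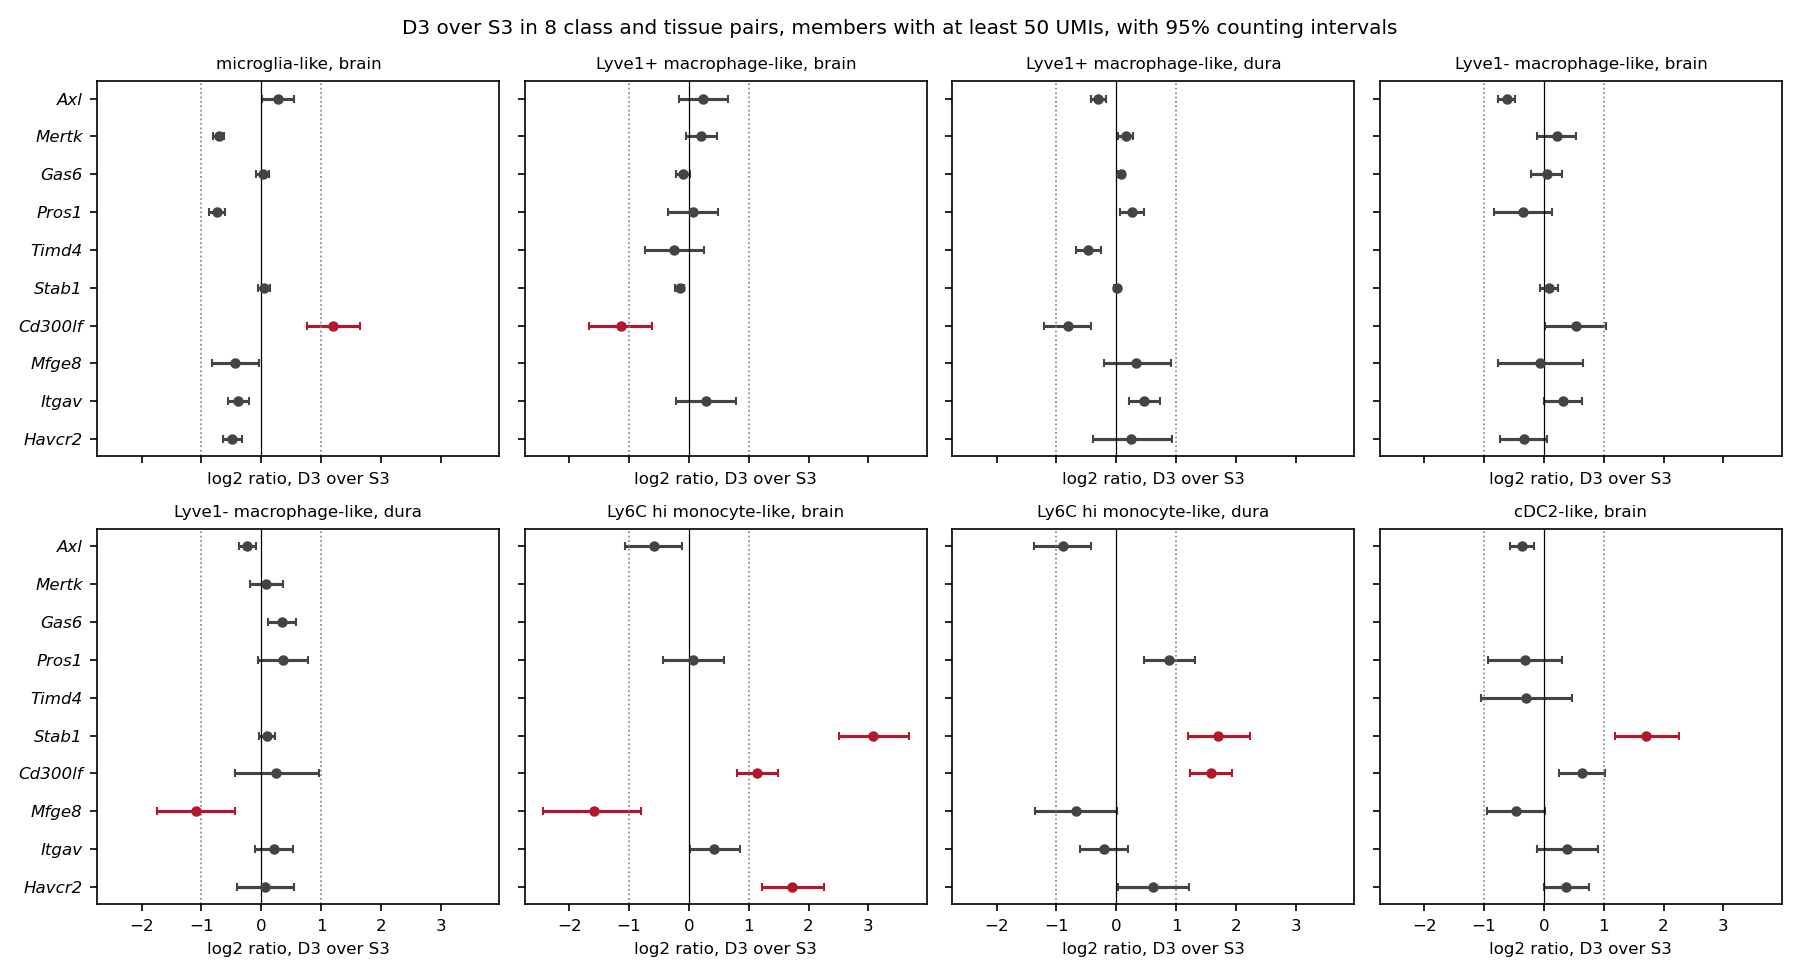
Log2 ratio of D3 over S3 (horizontal axis) for each member with at least 50 UMIs in 8 class and tissue pairs, with 95% counting intervals, dotted lines at 2-fold and red points past it. Most points of the macrophage classes lie inside the lines, while *Stab1* and *Cd300lf* of Ly6C hi monocyte-like cells lie beyond them in brain and dura mater.

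Of the comparisons of D3 with S3, the Ly6C hi monocyte-like class in brain had the most members past 2-fold. *Stab1* stood at 9.19 (6.15 to 13.2) CPM in S3 and 77.1 (68.4 to 86.6) CPM in D3 brain, an 8.39-fold difference (log2 3.07, interval 2.52 to 3.67). The share of thinned cells with a *Stab1* UMI was 0.885% (0.107 to 3.16) and 13.5% (9.56 to 18.2), against 1.85% and 1.93% of T-like and B-like cells, so the D3 value was above this background and the S3 value was not. *Havcr2* went from 12.99 to 42.9 CPM (1.72, interval 1.22 to 2.26) and *Cd300lf* from 31.4 to 69.3 CPM (1.14, interval 0.802 to 1.49). *Mfge8* was lower, from 15.5 to 5.16 CPM (-1.59, interval -2.44 to -0.798), and T-like and B-like cells went the same way, from 10.8 (8.52 to 13.5) to 3.95 (1.28 to 9.21) CPM, so the D3 value was not above this background. These 4 of 7 members tested were past 2-fold, against 6.51% of 7517 genes, with a median of 0.43 beside -0.06. *Mertk* and *Gas6* had 27 and 22 UMIs over both groups and were not tested. The cells held 5464 and 6390 CPM of the infiltrating macrophage list in S3 and D3, with *Arg1* at 0.317 and 158 CPM, and 3093 and 6824 CPM of the granulocyte list. The 12 genes of the microglia list summed to 411 and 415 CPM and the 10 of the *Lyve1*+ macrophage list to 705 and 755 CPM. At D3, 10 and 9 of their genes had a UMI, and *Sall1* of the first and *Lyve1* of the second were at 0. The part of these lists in the ratios was not tested.

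The same class of the dura mater was compared after its values had been seen. *Cd300lf* was higher there too, from 23.4 (18.8 to 28.8) to 70.01 (62.5 to 78.1) CPM (1.58, interval 1.24 to 1.93), above the 0.959 and 0.811 CPM of T-like and B-like cells. The granulocyte list summed to 1192 and 3570 CPM in these monocyte-like cells, and its part was not tested. *Stab1* went from 10.7 (7.66 to 14.5) to 34.8 (29.6 to 40.6) CPM (1.704, interval 1.201 to 2.24), but T-like and B-like cells of the same libraries held 10.2 (6.9997 to 14.4) and 30.01 (21.1 to 41.4) CPM, so neither value stood above this background. These were 2 of 7 members past 2-fold, against 2.8% of 8068 genes. *Pros1* stood at 0.88 (0.46 to 1.32) and *Axl* at -0.89 (-1.37 to -0.42). *Havcr2*, past 2-fold in the brain, stood at 0.61 (0.03 to 1.22) in the dura mater, and whether the tissues differ was not tested.

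**Figure D5:**
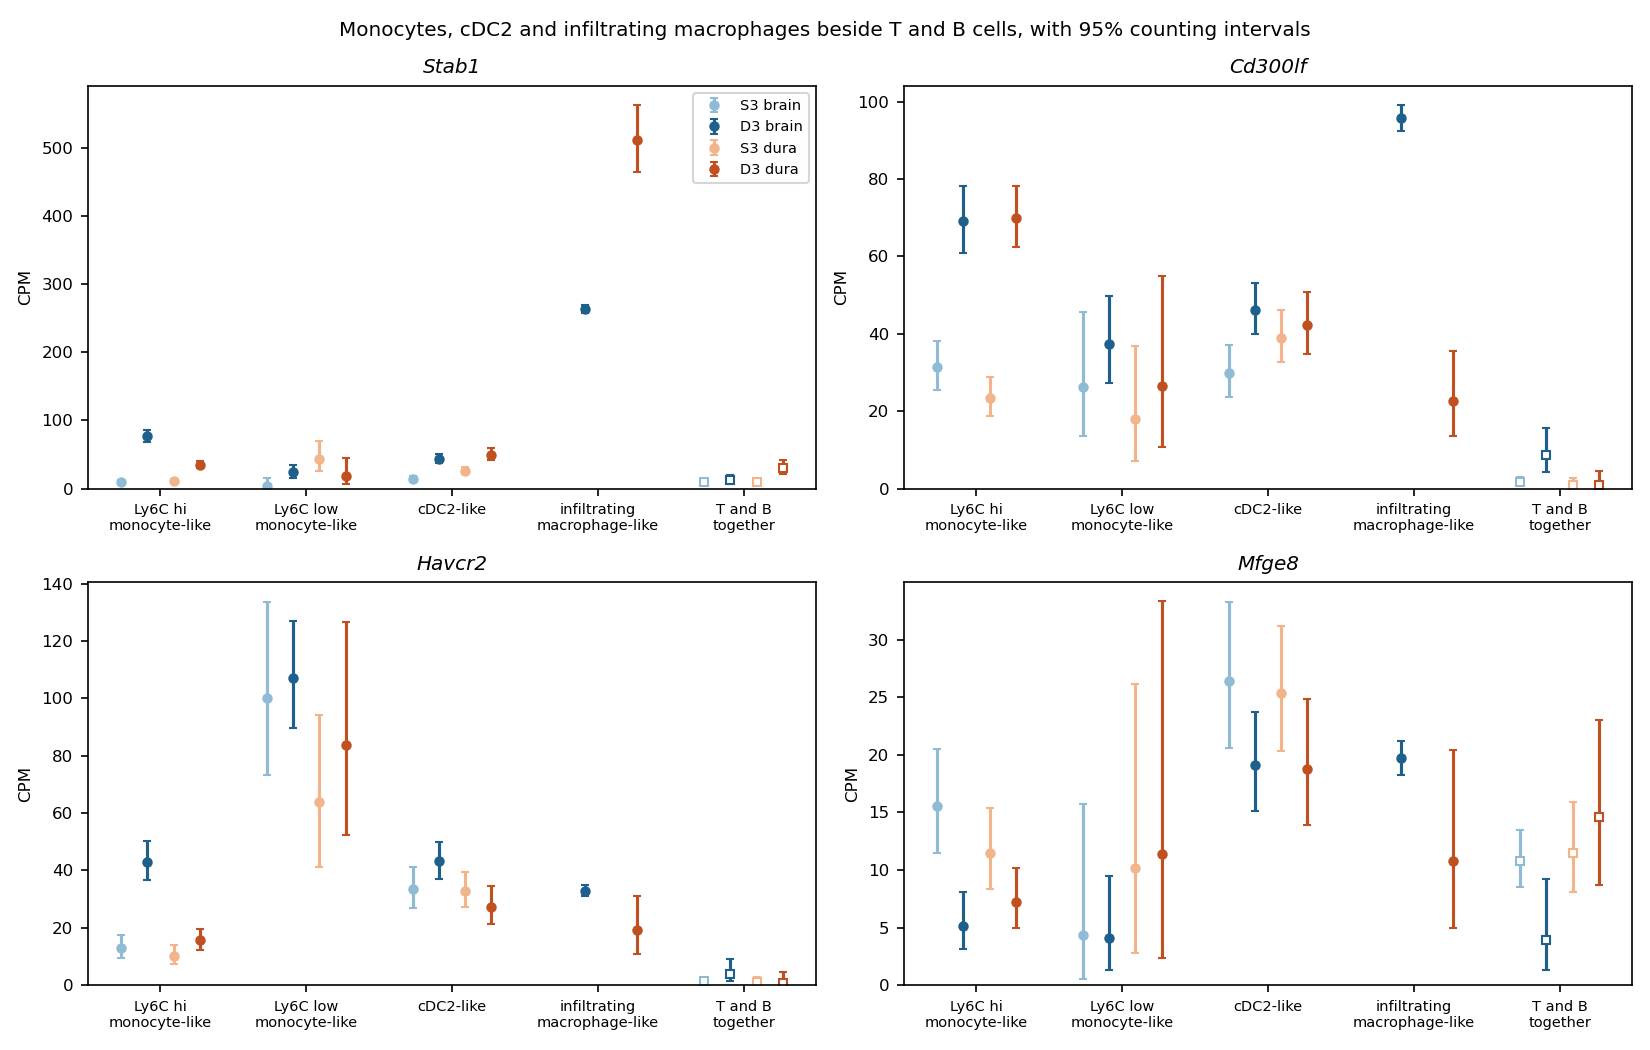
Levels (CPM) of *Stab1*, *Cd300lf*, *Havcr2* and *Mfge8* in monocyte-like, cDC2-like and infiltrating macrophage-like cells, 1 point per library with 95% counting intervals, and open squares for T-like and B-like cells together. *Cd300lf* of Ly6C hi monocyte-like cells is at 69.3 and 70.01 CPM in the D3 brain and dura mater and at 31.4 and 23.4 CPM in S3, while *Stab1* of the D3 dura mater lies within the interval of the open square.

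Infiltrating macrophage-like cells were then set beside the Ly6C hi monocyte-like cells of the same D3 brain library. *Gas6* stood at 4.62 CPM in the monocyte-like and 106 CPM in the infiltrating class, and *Mertk* at 5.704 and 86.9 CPM. T-like and B-like cells of this library held 11.1 and 17.4 CPM of these genes, above both monocyte values, so the size of the ratios (4.52, interval 3.84 to 5.305, and 3.93, interval 3.31 to 4.62) rested on levels that were not above background. The 17.4 CPM of *Mertk* rested on 22 UMIs in 207 T-like and B-like cells, of which 0.483% had a UMI after thinning. Without a filter on cells the ratios were 3.04 and 2.85. *Axl* was higher by 2.05 (1.696 to 2.42), *Mfge8* by 1.93 (1.28 to 2.67), *Stab1* by 1.77 (1.602 to 1.95) and *Itgav* by 1.17 (0.91 to 1.44). *Pros1* went the other way, from 20.6 to 8.48 CPM (-1.28, interval -1.65 to -0.8998). So 7 of 9 members were past 2-fold, 6 higher and 1 lower, against 21.7% of 10405 genes, and the median was 1.77 beside 0.06 over all genes. *Cd300lf* and *Havcr2* differed by less, at 0.47 (0.28 to 0.66) and -0.39 (-0.63 to -0.14). When each cell was gated by its markers instead of by cluster, the ratio of *Axl* was 0.15. *Mfge8* of the monocyte-like class, at 5.16 CPM, was not above the 3.95 (1.28 to 9.21) CPM of T-like and B-like cells. *Itgav* of that class, at 34.5 CPM, was not above their 33.2 (23.9 to 44.8) CPM either.

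Beside the microglia-like cells of D3 brain, infiltrating macrophage-like cells held less *Pros1* (104 against 8.48 CPM, -3.61, interval -3.803 to -3.42), *Havcr2* (-1.32, interval -1.45 to -1.19), *Mertk* (-1.29, interval -1.36 to -1.21) and *Gas6* (-1.04, interval -1.11 to -0.96), and more *Cd300lf* (25.3 against 95.8 CPM, 1.92, interval 1.74 to 2.11). These 5 of 9 members were past 2-fold, against 21.2% of 11015 genes. *Gas6* lay close to the limit and was within 2-fold under 6 alternatives, down to -0.67, and *Mertk* was within 2-fold without a filter on cells (-0.72). *Axl* was higher by 0.87 (0.73 to 1.03), less than 2-fold, and by 0.24 to 1.44 under the alternatives. *Stab1* stood at -0.1002 (-0.16 to -0.04). The infiltrating class therefore held *Axl* above and *Mertk* below microglia, and the ligand with the largest gap was *Pros1*.

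Within S3 dura mater, *Lyve1*+ were compared with *Lyve1*- macrophage-like cells. *Timd4* (4.005, interval 3.06 to 5.15), *Gas6* (2.79, interval 2.59 to 2.99) and *Stab1* (2.12, interval 2.01 to 2.24) were higher in *Lyve1*+ cells, and *Havcr2* (-2.12, interval -2.802 to -1.47) and *Mfge8* (-1.39, interval -2.03 to -0.76) were lower. These 5 of 10 members were past 2-fold, against 13.2% of 8417 genes. *Mertk* (0.903, interval 0.67 to 1.15) and *Pros1* (0.98, interval 0.603 to 1.36) were higher and *Axl* (-0.84, interval -0.98 to -0.69) and *Itgav* (-0.78, interval -1.12 to -0.44) lower by less than 2-fold. For *Timd4*, *Gas6*, *Stab1*, *Havcr2*, *Axl*, *Mertk* and *Pros1*, these differences were larger in size than those between S3 and D3 within *Lyve1*+ dura cells. The intervals, compared by size, did not overlap for these members, and they overlapped for *Mfge8*, *Itgav* and *Cd300lf*.

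*Lyve1*+ macrophage-like cells of S3 brain and S3 dura mater held like levels of *Gas6* (-0.02, interval -0.12 to 0.07), *Itgav* (-0.02, interval -0.46 to 0.399) and *Mertk* (-0.25, interval -0.47 to -0.03). *Axl* was 3.48-fold lower in the brain (-1.801, interval -2.12 to -1.495), with 6.82% (3.16 to 12.5) of brain and 25.96% (21.4 to 30.97) of dura cells positive after thinning. At D3 the thinned shares were 13.04% (8.26 to 19.2) and 25.8% (22.1 to 29.8). *Cd300lf* was higher in S3 brain (1.29, interval 0.88 to 1.696), beside the granulocyte list values given above, and was within 2-fold with doublets kept (0.78). *Axl* and *Cd300lf* were 2 of 9 members past 2-fold, against 7.73% of 8459 genes. *Axl* was past 2-fold under all alternatives except the coarser clustering (-0.18), in which *Lyve1*+ and *Lyve1*- cells formed 1 cluster.

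cDC2-like cells of the brain held 13.4 (9.37 to 18.5) CPM of *Stab1* in S3 and 43.6 (37.6 to 50.4) CPM in D3 (1.704, interval 1.18 to 2.26), 1 of 8 members past 2-fold against 5.74% of 7558 genes. Without a filter on cells this ratio was 0.30. *Mertk* had 0 UMIs in the 146 S3 cells and 42 in the 268 D3 cells, under the minimum of 50 UMIs. The T-like and B-like cells of D3 brain held 17.4 CPM, on 22 UMIs, against 9.901 CPM in the D3 class. *Axl* stood at -0.37 (-0.57 to -0.17). The infiltrating macrophage list summed to 3395 CPM in S3 and 3162 CPM in D3 cDC2-like cells, with *Arg1* at 0 and 36.3 CPM, and its part was not tested.

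In granulocyte-like and immature granulocyte-like cells of the brain together, *Cd300lf* stood at 325 CPM in S3 and 215 CPM in D3 (-0.59, interval -0.76 to -0.43). *Stab1* (-1.5998, interval -2.07 to -1.15) and *Gas6* (-1.24, interval -1.998 to -0.53) were lower, 2 of 4 members past 2-fold against 6.04% of 5331 genes. These values rested on few cells. *Stab1* stood at 148 CPM in immature granulocyte-like cells of S3 brain, yet only 4.81% of them were positive after thinning, and the *Lyve1*+ macrophage list summed to 542 CPM there and 161 CPM in D3. With doublets kept the ratio of *Stab1* turned to 0.57, and the mean of the CPM of single cells gave -0.89 for *Stab1* and -0.25 for *Gas6*.

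Other genes of the engulfment pathway were read from a list of 57, in 4 groups, and each count stands beside the share of all tested genes past 2-fold in either direction. In microglia-like cells at D3 (9.98% of all genes), 3 of 9 tested bridging and opsonin genes were higher and 0 lower: *Lgals3*, a galectin that opsonizes (87.7 to 717 CPM), *Thbs1*, thrombospondin (24.3 to 79.7 CPM), and *Anxa5*, which binds phosphatidylserine (74.9 to 189.9 CPM). Of 10 other engulfment receptors 2 were higher, the scavenger receptors *Msr1* (9.58 to 39.3 CPM) and *Cd36* (5.75 to 13.1 CPM). Of 14 machinery genes 1 was lower, *Elmo1*, which activates Rac in engulfment (247 to 115 CPM), and of 7 genes of restraint and shedding 1 was higher, *Pirb*. All of these genes differed in the same direction between infiltrating macrophage-like and microglia-like cells of D3 brain (*Lgals3* by 2.21, *Elmo1* by -1.23). The infiltrating macrophage list was also higher in D3 microglia-like cells, as given above, and its part in these values was not tested. In Ly6C hi monocyte-like cells of D3 brain (6.51%) 4 of 9 bridging and opsonin genes were higher, the complement chains *C1qa* (34.2 to 158 CPM), *C1qb* (51.3 to 281 CPM) and *C1qc* (23.4 to 109 CPM) and *Thbs1*. Of 8 other receptors 3 were higher, *Itgb5*, a partner of αv (32.95 to 129.6 CPM), *Trem2* (76.7 to 174 CPM) and *Tlr4* (7.29 to 20.1 CPM), and of 13 machinery genes 1, the lipid exporter *Abca1* (9.82 to 51.3 CPM). The opsonin chains and *Trem2* are macrophage genes, and in infiltrating macrophage-like cells of the same library *Trem2* was at 1347 CPM and *C1qa* at 2876 CPM. In cDC2-like cells of D3 brain (5.74%) the same 4 bridging genes were higher (*C1qa* 120 to 363 CPM). *Itgb5*, *Trem2*, *Abca1* and *Nr1h3* were also higher there, and *Dock1* was lower. In granulocyte-like cells (6.04%) *C1qb* (129 to 308 CPM), *Trem2*, *Itgb5* and *Lrp1* were higher and *Thbs1* lower. Higher levels were thus not particular to Ly6C hi cells, and T-like and B-like cells were not read for these genes.

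At D3 the Ly6C hi class of the dura mater (2.8% of all genes) was compared in the same way, and the same 3 complement chains were the 3 of 9 bridging genes that were higher (*C1qb* 69.8 to 206 CPM), and of 10 other receptors *Itgb5* was higher and *Itgb3* lower. In *Lyve1*+ cells of the dura mater (1.63%) 0 of 10 other receptors and 0 of 15 machinery genes passed 2-fold, 1 of 9 bridging genes was lower (*Thbs1*, 81.7 to 37.1 CPM) and 1 of 7 genes of restraint higher (*Pirb*, 95.8 to 196 CPM). In *Lyve1*- cells of the dura mater (1.06%) none of the 9 receptors, 9 bridging, 14 machinery and 6 restraint genes tested passed 2-fold. In *Lyve1*+ cells of the brain (3.63%) 4 genes were lower at D3, *Thbs1* (368 to 88.5 CPM), *C3* (50.1 to 15.7 CPM), *Cd300ld* (113 to 55.98 CPM) and *Crkl* (27.2 to 13.2 CPM). *Thbs1* stood at 2604 CPM in S3 and 677 CPM in D3 granulocyte-like cells of the brain. The granulocyte list was lower in D3 than in S3 *Lyve1*+ cells of the brain, as given above, and its part in these values was not tested. In *Lyve1*- cells of the brain (2.2%) *Thbs1* was higher (72.8 to 244 CPM) and *Cd36* lower (70.4 to 25.3 CPM). Between the classes of S3 dura mater (13.2%), *Lyve1*+ cells held more of 3 of 10 other receptors, *Cd36*, *Scarf1* and *Tlr4*, and of 3 of 14 machinery genes, *Abca1*, *Crkl* and *Rubcn*, and less of 1 of 9 bridging genes, *Lgals3*. In infiltrating macrophage-like against microglia-like cells of D3 brain (21.2%), 5 of 9 bridging genes were higher, led by *Thbs1* (79.7 to 1496 CPM) and *Anxa1* (18.4 to 109.9 CPM), and 2 lower, *C1qa* and *C1qc*. Of 12 other receptors 6 were higher and 2 lower, *Itgb3* (13.1 to 0.614 CPM) and *Itgb5* (908 to 452 CPM), both partners of αv. The αv chain itself, *Itgav*, stood at 0.25 (0.13 to 0.37) in the same comparison.

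The genes most alike in pattern were found over 74 class and library groups and 10563 genes, by Pearson correlation of log2(CPM + 1), as a description of groups that share libraries. Genes like *Mertk* included *Cttnbp2nl* (r = 0.87) and *P2ry12* (0.85), the last a microglia gene. *Gas6* was most like *Stab1* (0.87), another member, and *Stab1* most like *C1qa* (0.89) and *C1qc* (0.89). *Axl* was most like *Tmem106a* (0.82), *Cd300lf* like *Csf3r* (0.84), *Havcr2* like *Slamf8* (0.83), *Mfge8* like *Pgrmc1* (0.82) and *Pros1* like *Laptm4a* (0.83). *Timd4* reached 0.75 with *Asgr2* and *Itgav* 0.70 with *Nol4l*. Between the receptors, *Axl* and *Mertk* reached 0.57, below *Mertk* and *Stab1* at 0.79.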

How the data were processed

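CD45+ cells of brain and dura mater, 1 library per tissue and condition, were profiled with a 10x 3′ kit. Per the submitters' processing notes, Cell Ranger 3.1.0, Seurat 3.1.0 and mm10 were used. The authors deposited natural log values, ln(1 + 10000 × UMIs / cell total), and 100% of values gave whole UMIs (within 1e-06), so UMIs were recovered and summed. Barcodes were kept at 1000 to 6000 genes and at most 7% mitochondrial UMIs, and the highest doublet scores (0.8% per 1000 barcodes) were removed. Cells were clustered on 2500 variable genes without the members and pathway genes (30 components, 20 neighbours, Leiden resolution 0.6) with Python 3.11.15, numpy 2.4.6, scipy 1.17.1, scikit-learn 1.9.0, igraph 0.11.9 and leidenalg 0.10.2. A cluster was named when at least 2 markers were among its 10 leading genes and no other lineage was also raised, a rule tightened after a first look. This left 5 clusters unnamed, 4 of them for markers of a second lineage, and rebuilt names may differ from those of the study. Intervals are exact Poisson (levels), Clopper-Pearson (shares) and conditional binomial (ratios). Genes were named as the members, pathway genes past 2-fold, and the genes most alike in pattern. The scripts were tested on simulated data. The members and lists were chosen with earlier results of these data known, and the Ly6C hi comparison in dura mater after its values were seen. With 1 library per group no test was run. Alternatives were other filters, clusterings, scalings and minimum UMIs. Promoters came from RefSeq. 1 gene alike in pattern is not reported here.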

Additional observations from a re-analysis of the deposited data

Results flagged for a closer look

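*Cd300lf* stood at 424 CPM (367 to 488) in an unnamed cluster of D3 brain that no comparison used. The cluster was led by *Cxcl3* and *Siglecf*, held 141 cells there with a median of 3015 UMIs, and 56.1% of its thinned cells had a *Cd300lf* UMI. The highest named class of the same library, granulocyte-like cells, held 351 CPM, and its interval, given above, overlapped that of the cluster.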

How the results depend on the processing

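Of 151 counts of members past 2-fold under alternative settings, 118 were within 1.5 times the reported count and 33 were not. Of single ratios, 792 moved by less than their counting interval, 192 moved by more, and 1 was counted as reversed. This was *Stab1* in granulocyte-like cells of the brain, past 2-fold as reported and 0.57 with doublets kept. Some ratios within 2-fold as reported also changed sign under an alternative but were not counted as reversed. Between *Lyve1*+ and *Lyve1*- cells of S3 dura mater, *Cd300lf* (reported as 0.82) fell as low as -1.57. *Itgav* in brain granulocyte-like cells (reported as -0.42) rose as high as 0.46. The cause of these changes was not tested. In *Lyve1*+ cells of the brain the count (reported as 1) was 0 with all variable genes, with doublets kept, after thinning, at a minimum of 200 UMIs, with no filter on cells and at resolutions 0.3 and 1.2, and 2 at a minimum of 10 UMIs. In *Lyve1*- cells of the dura mater (1) it was 0 after thinning, at 200 UMIs, at resolution 1.2 and without the top cell, and 2 at 10 UMIs. In *Lyve1*+ cells of the dura mater (0) it was 1 with cells gated on markers, with no filter and at resolution 1.2, and in *Lyve1*- cells of the brain (0) it was 1 with gated cells. In microglia-like cells (1) it was 0 after thinning and 2 with no filter or at 10 UMIs. In granulocyte-like cells (2) it was 0 with doublets kept, after thinning and with the mean of each cell's CPM, 1 at 200 UMIs and without the top cell, and 4 at 10 UMIs. In cDC2-like cells (1) it was 0 after thinning and 3 at 10 UMIs. In Ly6C hi monocyte-like cells it was 2 at 200 UMIs in the brain (4) and 1 after thinning in the dura mater (2). Between *Lyve1*+ and *Lyve1*- cells of S3 dura mater (5) it was 3 at 200 UMIs, and between *Lyve1*+ cells of brain and dura mater (2) it was 1 after thinning and with no filter. No paired analysis was possible because each condition had 1 library. Library, animal and condition cannot be told apart, and low members such as *Timd4* and *Mfge8* rested on few UMIs in most classes.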

Other observations

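A small unnamed cluster led by *Dcn* and *Col1a2*, genes of fibroblasts, held *Mfge8* at 969 CPM (10 cells, S3 brain) and 913 CPM (6 cells, D3 brain). In D3 dura mater its 11 cells held *Gas6* at 722 CPM and *Mfge8* at 55.1 CPM. Endothelial-like cells of the brain, 20 in S3 and 25 in D3, held *Gas6* at 331 and 203 CPM. The sort was for CD45+ cells, and these cells were few.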
